A study of Rattus norvegicus with 8 samples.

Results

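Forebrain tissue of Pax6 homozygous rat embryos was compared with forebrain tissue of wild-type embryos at E12.5, the stage the labels give. The comparison takes 4 of the 8 arrays of the series, the 2 titled Pax6 homozygous Forebrain and the 2 titled Wild-type Forebrain, and uses every probe set outside the array controls, 8740 in all. A probe set is a group of short oligonucleotides on the Affymetrix rat array that reads 1 transcript or, for some, several that are alike. The other 4 arrays hold hindbrain of both genotypes, and they entered the model to estimate the spread. Forebrain here means everything rostral to a cut at the isthmus, so the midbrain and the primordia of the eye and the nose were included. Both genotypes were dissected and processed in the same way per the labels, which name neither the mutant allele nor the number of embryos behind each RNA. The arrays of each group are numbered 1st and 2nd. The labels do not say whether they came from separate litters, so that the spread behind each p-value is that between arrays and may be technical. Below, mutant stands for Pax6 homozygous, and pairs of values are given as 1st and 2nd array.

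Pax6 is a transcription factor that binds DNA through a paired domain and a homeodomain. In the embryonic head it is made in progenitors of the dorsal forebrain, in the lens and retina and in the nasal placode, and embryos that lack it have no eyes and no nose. In the forebrain it is known for setting the fate of radial glia, the progenitors that line the ventricle and give rise to neurons. In such bulk tissue, fewer cells of a type and less RNA per cell cannot be told apart.

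Each value is the intensity that the authors deposited, on a linear scale. Dim values were judged against the noise of their array, taken as the absolute value of its 5th percentile, which was 287 to 551 on the 4 forebrain arrays. Differences are log2 values, Pax6 homozygous minus wild-type, with the standard error (SE) of a linear model in limma over 2 arrays per group. Of the 8740 probe sets, 5881 exceeded a low intensity limit on at least 2 arrays and were tested, and 4846 of these carry 1 gene symbol, for 3553 genes.

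The tissue was checked against its defining markers. Lhx2, a homeobox factor of forebrain and eye, read 8692 and 8273 in wild-type against 8129 and 7768 in mutant forebrain, and no hindbrain array exceeded 1801. Alx1, a factor of head mesenchyme, read 4692 and 7155 in wild-type against 5695 and 7274 in mutant forebrain. Hoxa5, a gene of caudal identity, and Actc1, cardiac actin, were above noise on no forebrain array. Of the other muscle markers, Myog and Des were above noise on none of them, but Myh3 and Tnnt2 were on all 4. Myh3 read 2751 and 870 in wild-type against 2450 and 1463 in mutant forebrain. Otx1, a further forebrain marker, was above noise on no array. By Lhx2, Alx1 and Hoxa5 the 4 arrays thus held forebrain tissue with head mesenchyme of both genotypes. The group sums of the mesenchyme markers overlapped (55350 and 53820 in wild-type, 50190 and 60690 in mutant forebrain). Emx1 and Emx2 were not analysed here. Pax6 itself, read by 1 probe set (S74393_s_at), was at 1197 and 636 in wild-type against 1243 and 927 in mutant forebrain. The groups overlap, the log2 difference was 0.30 ± 0.42, and without the 2nd wild-type array it was -0.16. Since the allele and the part of the transcript that the oligonucleotides read are not given, this level does not check the genotype labels.

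A single probe set of 5881 (0.017%) passed limma's test at an adjusted p under 0.05, that of Fabp7, and it was lower in mutant forebrain. No probe set passed as higher. At an unadjusted p under 0.05 there were 172 probe sets (2.92%). Both mutant arrays lay above both wild-type arrays for 730 probe sets (12.4%) and below both for 611 (10.4%), and with 1 probe set per gene, the brightest, for 456 (12.8%) and 370 (10.4%) of 3553 genes. The shares over genes are the background for each count of non-overlapping groups in a gene list. All genes described below other than Fabp7 missed the threshold, so their differences are values of these 4 arrays, and a p that misses the threshold does not show that genotypes were alike.

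The 2 arrays of a genotype also allow a comparison of the 1st arrays and, separately, of the 2nd arrays, which share no array. Across the 5881 probe sets the 2 sets of log2 ratios had a correlation of -0.02, and 46.7% of probe sets had the same sign in both. It stayed near 0 among bright probe sets: 0.04 over 3941 above noise on all 4 arrays, 0.02 over 2855 above 1000 and 0.02 over 1142 above 5000. Most small differences in forebrain therefore did not recur from one array pair to the other, while a few large ones did. These correlations are over probe sets, which are not independent replicates.

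**Figure D1:**
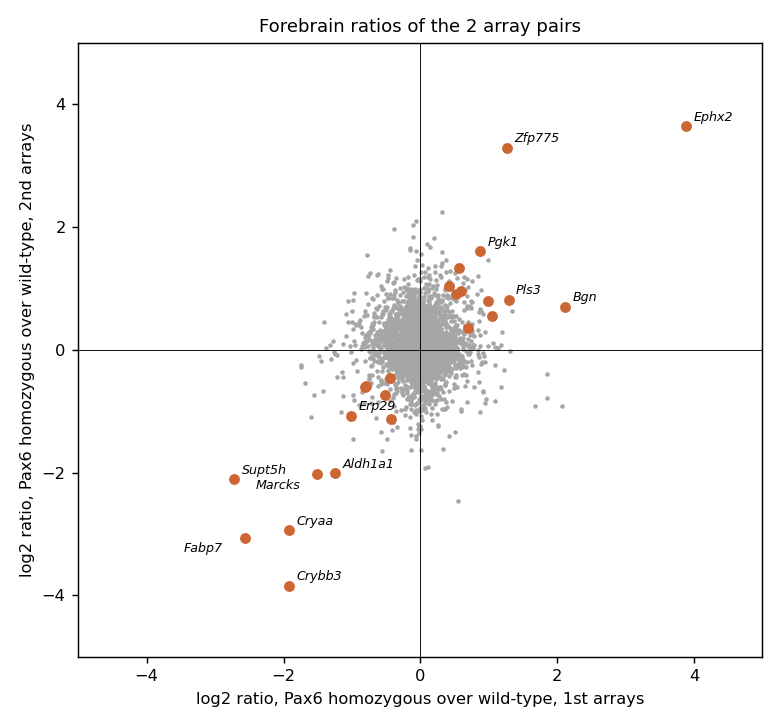
Log2 ratio of Pax6 homozygous over wild-type forebrain intensity on the 1st arrays (horizontal axis) and on the 2nd arrays (vertical axis). Grey points are probe sets with 1 gene symbol above noise on all 4 arrays, and orange points are the 12 leading genes in each direction, with names where the log2 difference is at least 1 in size. The grey cloud has no slope, and Fabp7, Cryaa, Marcks and Aldh1a1 lie far down the diagonal.

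The leading genes in each direction were taken by 1 rule. It required 4 forebrain arrays that did not overlap by genotype and a brighter group above noise on both arrays, and then took the 12 genes with the smallest p. By that rule their groups do not overlap, which is therefore no finding. The 12 lower genes were Fabp7, Marcks, Cryaa, Supt5h, Erp29, Aldh1a1, Crybb3, Ptms, Hbg1, Rtcb, Slc25a1 and Hbb-b1. The 12 higher genes were Pgk1, Ephx2, Cdh22, Pls3, Zfp775, C18h18orf54, Rab7a, Ssr3, Map2k1, Tpm1, Psat1 and Bgn. At an absolute log2 difference above 1 lay 7 of the lower and 5 of the higher genes.

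**Figure D2:**
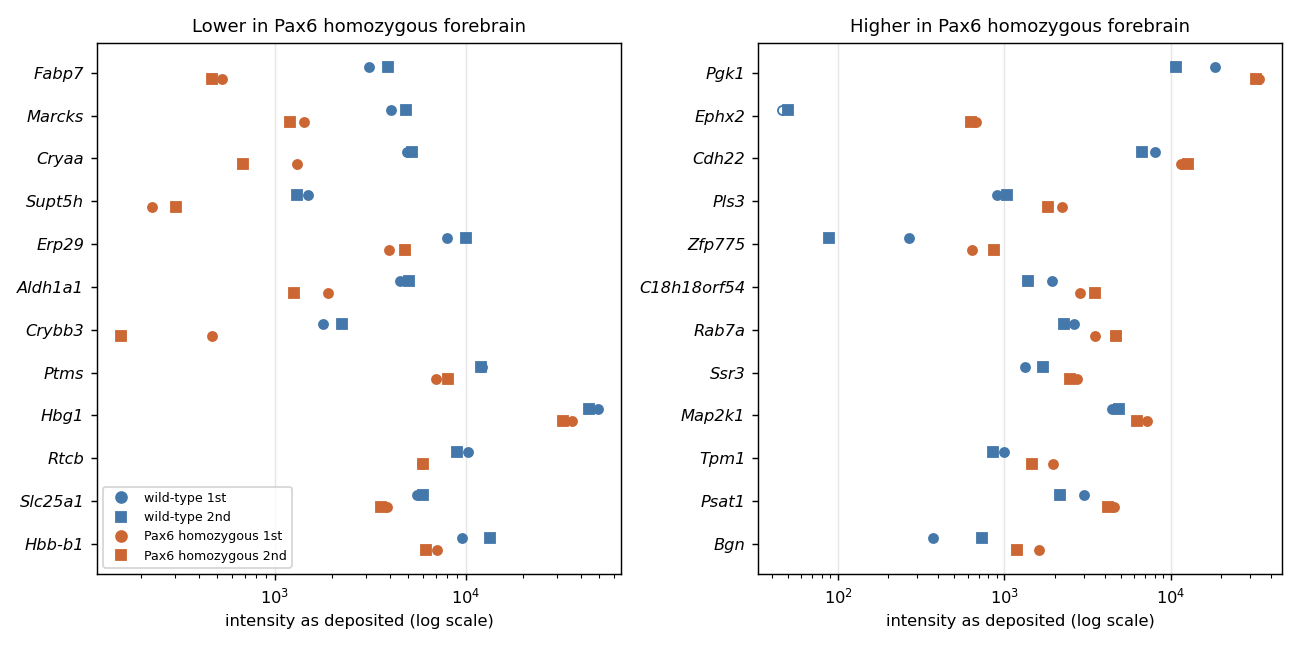
Intensity as deposited (log scale) of the 12 leading genes in each direction on the 4 forebrain arrays, with circles for 1st and squares for 2nd arrays, blue for wild-type and orange for Pax6 homozygous. An open symbol is a value under the floor (45.9), drawn at that limit. Fabp7, Supt5h, Cryaa and Crybb3 show wide gaps on the left, and Ephx2 and Zfp775 start from wild-type values near or under noise on the right.

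Fabp7 encodes a fatty acid binding protein of radial glia. Its intensity (U02096_at) was 3117 and 3934 in wild-type against 528 and 472 in mutant forebrain. The mutant arrays sat close together and far below both wild-type arrays, with a log2 change of -2.81 ± 0.23 (SE, limma's adjusted p = 0.00577), or 7.02-fold. The ratios were -2.56 on the 1st and -3.06 on the 2nd arrays. The call was lost with either mutant array left out (adjusted p = 0.0668 and 0.0504), when the variance was given no intensity trend (0.0756) and when the 4 forebrain arrays were fitted alone (1). Other genes of progenitors did not show a difference of that size: Nes and Vim, intermediate filament genes of neural progenitors, had log2 differences of 0.08 and -0.08, and Hes5, a Notch target that keeps progenitors from differentiating, read 4846 and 5442 in wild-type against 4044 and 3830.0 in mutant forebrain. Over 36 tested genes of neural progenitors and radial glia, 17 differences were positive and 19 negative. Of these genes, 7 had groups not overlapping as higher and 7 as lower (12.8% and 10.4% over all genes). Their median was -0.06, against 0.01 over all 3553 genes, and ran from -0.13 to 0.05 with 1 forebrain array left out.

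The windows upstream of the start of Fabp7, Cryaa and Aldh1a1 are shown because Pax6 binds DNA directly. Fabp7 is the gene that passed, and the other 2 were picked as genes of lens and of retinoic acid synthesis. By p, Marcks came before both of these, and Supt5h, Pgk1 and Erp29 came before Aldh1a1. The sequences are from RefSeq (GRCr8, plus strand, 250 bases before the annotated start), 5′ to 3′, and capitals mark TAAT or its reverse complement ATTA, the core that homeodomains bind.
Fabp7, chr20:37669356-37669605: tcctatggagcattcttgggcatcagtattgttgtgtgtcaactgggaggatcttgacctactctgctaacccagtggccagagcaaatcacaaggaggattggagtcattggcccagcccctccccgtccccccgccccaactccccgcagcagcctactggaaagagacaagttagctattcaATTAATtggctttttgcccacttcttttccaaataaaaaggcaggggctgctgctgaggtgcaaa
Cryaa, chr20:9784661-9784910: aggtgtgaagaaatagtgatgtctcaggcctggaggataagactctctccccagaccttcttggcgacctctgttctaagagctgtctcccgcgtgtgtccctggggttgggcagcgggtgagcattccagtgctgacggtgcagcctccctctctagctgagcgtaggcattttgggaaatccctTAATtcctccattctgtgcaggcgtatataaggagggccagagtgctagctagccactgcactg
Aldh1a1, chr1:227537370-227537619: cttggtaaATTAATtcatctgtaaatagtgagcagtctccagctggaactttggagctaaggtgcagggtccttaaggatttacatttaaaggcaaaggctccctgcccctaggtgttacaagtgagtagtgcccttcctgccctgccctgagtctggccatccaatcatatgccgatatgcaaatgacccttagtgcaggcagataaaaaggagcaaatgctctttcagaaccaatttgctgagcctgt
In Fabp7 and in Aldh1a1 the match on each strand overlaps the other in 1 run, and Cryaa holds 1 match. The core is common: searched on both strands, TAAT was in 57% of 33469 RefSeq windows of that length. The longer forms searched were rare, TAATNNNATTA, a pair of cores facing each other, which holds the core itself (0.382%), and TTCACGC, the centre of the paired-domain consensus (1.06%). Of the 12 lower genes, 10 have a window in the table, of which 4 hold TAAT, 0 the facing pair and 1, Supt5h, TTCACGC. All windows shown above are among those 4. Among the 12 higher genes 9 have a window, of which 2 hold TAAT and 0 either longer form. A match is a run of letters and not a shown binding site, and a window without one says nothing of Pax6.

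Lens genes lay lower in the mutant by widely differing amounts, though none passed. Cryaa, the alpha-A crystallin of the lens, read 4919 and 5254 in wild-type against 1303 and 683 in mutant forebrain, a log2 difference of -2.43 ± 0.37. Crybb3, a beta crystallin, read 1779 and 2240.3 in wild-type against 469 and 156 in mutant forebrain; no mutant array was above noise, so the difference is given as at least 5.15-fold. Pitx3, a homeobox factor of the lens, read 2259 and 1773 in wild-type against 770.0 and 1063 in mutant forebrain (-1.15 ± 0.55). In forebrain the groups of all 3 genes do not overlap, which for Cryaa and Crybb3 follows from the rule that chose them. Pitx3 read 2409 and 1249 in wild-type and 2417 and 755 in mutant hindbrain, so its signal was not particular to forebrain. Of 12 lens and eye genes tested, 11 differences were negative and 1 positive, and 5 groups did not overlap as lower (10.4% over all genes). The median was -0.28, or -0.47 without the 1st mutant array. Among the small differences was Mip, at 1669 and 1449 in wild-type against 1547 and 1190 in mutant forebrain, with the groups overlapping. Crybb2, Cryab and Crygd had log2 differences of -0.01, -0.15 and -0.26, each with at least 1 forebrain array below noise. The summed intensity of 9 lens markers was 10230 and 11200 in wild-type and 4993 and 3573 in mutant forebrain. Cryaa and Crybb3 make up most of the wild-type sums but not of the mutant sums, and Crybb1 was above noise on no array. The hindbrain sums of the same markers were 6265 and 3199 in wild-type and 5401 and 4351 in mutant tissue.

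Retinoic acid, a signal made from vitamin A, is produced by aldehyde dehydrogenases and removed by Cyp26 enzymes. The synthesizing enzyme Aldh1a1 read 4504 and 5075 in wild-type against 1896 and 1257 in mutant forebrain (-1.63 ± 0.31). Its counterpart Cyp26b1, which degrades the signal, read 632 and 615 in wild-type against 528 and -22.7 in mutant forebrain; here the 1st mutant array lay near wild-type and the 2nd was below 0. Of 14 genes of retinoic acid metabolism and its receptors, 11 differences were negative and 2 positive. Of the positive ones, the receptor gene Rxrg read 878 and 461 in wild-type against 1594.5 and 708 in mutant forebrain (0.74 ± 0.47). Its groups overlap. Above noise on no forebrain array were 4 of the 14, against 396 of all 3553 genes. Groups did not overlap as lower for 4 and as higher for 0 (10.4% and 12.8% over all genes), and the median was -0.24. That median was near 0 on the 1st and -0.34 on the 2nd arrays, and it was -0.40 without the 1st and -0.01 without the 2nd mutant array. Nuclear receptors as a wider class had 15 negative and 6 positive differences of 22, with a median of -0.17 that was -0.03 without that array, -0.05 without the 1st and -0.31 without the 2nd wild-type array. Nr0b2, an orphan receptor that represses other receptors, read 790.4 and 638 in wild-type against -4.4 and 443 in mutant forebrain.

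For several leading genes other probe sets of the same gene gave another answer. Marcks, a membrane and actin binding substrate of protein kinase C, read 4077 and 4896 in wild-type against 1424 and 1203 in mutant forebrain on its leading probe set (-1.77 ± 0.22, limma's adjusted p = 0.0918). Its 3 further probe sets had log2 differences of -0.60, -0.30 and -0.28, and all 3 overlapped by genotype. Supt5h, a subunit of a transcription elongation factor, read 1491 and 1305 in wild-type against 226 and 303 in mutant forebrain on one probe set (-2.41 ± 0.41), with the 1st mutant array below noise. That difference was -1.49 with the floor raised to the pooled median, and the other probe sets had positive differences of 0.26 and 0.91. Erp29, a chaperone of the endoplasmic reticulum, read 8002 and 10083 in wild-type against 3973 and 4791 in mutant forebrain on the one (-1.04 ± 0.19) and had a difference of 0.04 ± 0.26 on the other, where the groups overlap. These 3 genes therefore rest on 1 probe set each.

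Parathymosin (Ptms), a small acidic nuclear protein that binds histone H1, lay lower on all 3 of its probe sets, which come from 3 accessions. The brightest read 12135 and 12099 in wild-type against 6994 and 8046 in mutant forebrain (-0.69 ± 0.17), the next 7315 and 7159.5 in wild-type against 5461 and 5288 in mutant forebrain (-0.43 ± 0.16), and the dimmest 2547 and 2182 in wild-type against 1303 and 1237 in mutant forebrain (-0.89 ± 0.32). No mutant array reached a wild-type array on any of them, which for the brightest follows from the rule that chose it. Rtcb, the ligase that joins cut tRNA, read 10272 and 9041 in wild-type against 5869 and 5957 in mutant forebrain on the brighter of 2 probe sets from 1 accession (-0.70 ± 0.19) and 1858 and 1651 in wild-type against 844 and 980.1 in mutant forebrain on the dimmer (-0.95 ± 0.32). Slc25a1, the mitochondrial carrier that exports citrate for lipid synthesis, read 5536 and 5981 in wild-type against 3875 and 3587 in mutant forebrain (-0.63 ± 0.18). Each of these differences was smaller in size than that of Fabp7, and none passed.

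Globin genes lay lower by a modest amount. The gamma-type globin Hbg1 read 49103 and 44366 in wild-type against 36080.4 and 32408 in mutant forebrain (-0.45 ± 0.12), Hbb-b1 read 9554 and 13434 in wild-type against 7071 and 6165 in mutant forebrain (-0.78 ± 0.22) and Hbb read 17427 and 21566 in wild-type against 13646 and 14124 in mutant forebrain (-0.48 ± 0.16). Transcripts of related globins are alike in sequence to a differing degree, so some of these probe sets may read each other. Of 18 red blood cell genes tested, 13 differences were negative, with a median of -0.19. Groups did not overlap as lower for 8 and as higher for 2 (10.4% and 12.8% over all genes). The summed intensity of 5 red blood cell markers was 167700 and 177500 in wild-type and 144200 and 142400 in mutant forebrain, so these transcripts were lower in sum on both mutant arrays. The hindbrain sums lay in the same order, 161300 and 149900 in wild-type and 133900 and 136300 in mutant tissue. Their part in other differences was not tested.

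**Figure D3:**
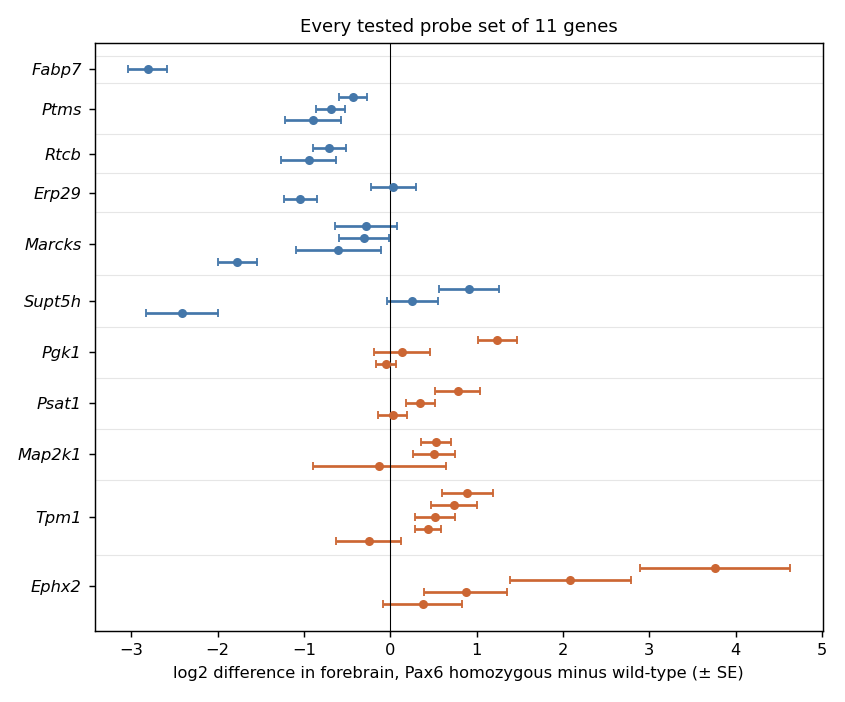
Log2 difference in forebrain (Pax6 homozygous minus wild-type) of each tested probe set of 11 leading genes, with bars of 1 standard error of the model (2 arrays per group), blue where the mean over the probe sets of a gene is negative and orange where it is positive. The 3 probe sets of Ptms and the 4 of Ephx2 lie on one side of 0, while single probe sets of Marcks, Supt5h, Erp29 and Pgk1 stand apart from their companions.

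On the higher side, the probe set with the smallest p was one of Pgk1, which makes phosphoglycerate kinase of glycolysis. It read 18331 and 10738 in wild-type against 33674 and 32554 in mutant forebrain (1.24 ± 0.22, limma's adjusted p = 0.404). The other 2 probe sets had differences of 0.13 and -0.05, the brighter at 35521 and 36869 in wild-type against 34000.4 and 36019 in mutant forebrain. Glycolysis genes as a group did not lean one way: of 26 tested, 15 differences were positive and 11 negative. Groups did not overlap as higher for 3 and as lower for 4 (12.8% and 10.4% over all genes). Ldhb, a lactate dehydrogenase subunit, read 12012 and 12382 in wild-type against 10681 and 7253 in mutant forebrain (-0.47 ± 0.20), and the glucose transporter Slc2a4 read 1131 and 921 in wild-type against 639.6 and 503 in mutant forebrain (-0.85 ± 0.34).

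Ephx2, soluble epoxide hydrolase, was higher on each of its 4 probe sets, but they are dim. The leading one read -160.3 and 50.3 in wild-type against 677 and 627 in mutant forebrain, where no wild-type array was above noise, so the difference is at least 1.48-fold. Another read 569 and 497 in wild-type against 1011 and 936 in mutant forebrain (0.87 ± 0.48), with all 4 arrays above noise. The zinc finger gene Zfp775 likewise had no wild-type array above noise (266 and 88.5 in wild-type against 639.7 and 865 in mutant forebrain), for a difference of at least 1.69-fold. For both, the fitted log2 size depends on the floor set under dim values.

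Other leading higher genes included a cadherin and genes of the actin cytoskeleton, given here with relatives from the lists. Cdh22, a cadherin of the brain, read 7986 and 6750.4 in wild-type against 11473 and 12695 in mutant forebrain (0.72 ± 0.17), and the neural cadherin Cdh2 read 2589.5 and 2381 in wild-type against 3048 and 3591 in mutant forebrain (0.41 ± 0.24). Both lie in the same direction, yet the 17 cadherin, catenin and junction genes tested had 9 positive and 8 negative differences and a median of 0.01, from -0.49 to 0.38 with 1 array left out. Pls3, an actin bundling protein, read 904 and 1041 in wild-type against 2215 and 1834 in mutant forebrain (1.05 ± 0.27). Tropomyosin 1 (Tpm1), which lines actin filaments, had positive differences on 4 of its 5 probe sets, from 0.44 to 0.89, and -0.25 on the fifth; the brightest read 11489 and 13484 in wild-type against 16917 and 16817 in mutant forebrain. Tpm4, another tropomyosin, read 15107 and 14876 in wild-type against 19049.5 and 20704 in mutant forebrain (0.41 ± 0.15) and Cap1, which recycles actin monomers, read 2191 and 2611 in wild-type against 3915 and 3275 in mutant forebrain (0.58 ± 0.21). Of 45 actin cytoskeleton genes, 27 differences were positive, and 7 groups did not overlap as higher and 3 as lower (12.8% and 10.4% over all genes). The median was 0.06, with -0.06 on the 1st and 0.17 on the 2nd arrays and -0.07 without the 2nd wild-type array.

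Among the remaining leading genes, Rab7a, a GTPase of late endosomes, read 2616 and 2275 in wild-type against 3510.4 and 4671 in mutant forebrain (0.73 ± 0.22). C18h18orf54 read 1919 and 1385 in wild-type against 2844 and 3498 in mutant forebrain (0.95 ± 0.26). Map2k1, a kinase that activates ERK, had differences of 0.53 ± 0.17 and 0.51 ± 0.24 on its 2 probe sets above noise. Ssr3, part of the translocon complex of the endoplasmic reticulum, was 0.80 ± 0.24 on the one and -0.19 ± 0.27 on the other. Biglycan (Bgn), a matrix proteoglycan, was 1.41 ± 0.47 and -0.51 ± 0.52. On its leading probe set, which gave the positive value, the 1st wild-type array lay below noise. Map2k1 thus recurs over probe sets, and Ssr3 and Bgn do not.

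Transcription factors that pattern the brain showed single genes at higher intensity in mutant forebrain. Pou3f4, a POU factor of ventral forebrain progenitors, read 638 and 543 in wild-type against 1180.4 and 1064 in mutant forebrain (0.93 ± 0.34). Isl1, a LIM-homeobox factor of early neurons, read 107 and 635 in wild-type against 805 and 955 in mutant forebrain (1.75 ± 0.70), with the 1st wild-type array in the noise. Prrx1, a homeobox factor of mesenchyme, read 2494 and 1618 in wild-type against 2596 and 3695 in mutant forebrain (0.62 ± 0.30). In these the groups do not overlap, although for Prrx1 the 1st arrays differ by little. Of 30 homeobox, POU, Pax and other patterning factors tested, 19 differences were positive and 9 negative. Above noise on no forebrain array were 7 of the 30, against 396 of all 3553 genes. Groups did not overlap as higher for 6 and as lower for 2 (12.8% and 10.4% over all genes), and the median was 0.14. The median was 0 on the 1st and 0.20 on the 2nd arrays, and ran from 0.03 to 0.11 with 1 array left out, lowest without the 2nd wild-type array.

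Neuronal genes were divided. Of 41 tested, 21 differences were positive and 20 negative, and 7 groups did not overlap as higher and 6 as lower (12.8% and 10.4% over all genes). The median was 0.02, from -0.06 to 0.03 with 1 array left out. Nefl, the light neurofilament subunit, read 2264 and 1890.3 in wild-type against 2866 and 2953 in mutant forebrain (0.49 ± 0.23). Ina, the alpha-internexin filament of early neurons, read 6269.7 and 5536 in wild-type against 5211 and 3562 in mutant forebrain on one probe set (-0.45 ± 0.20) and 3958 and 3571 in wild-type against 4133 and 4909.7 in mutant forebrain on another (0.26 ± 0.17). The 2 probe sets of Ina thus lie on opposite sides, and the filament genes give no common direction. Gap43, of growing axons, read 5095 and 4975 in wild-type against 5338 and 5689 in mutant forebrain.

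In the Notch and proneural group, Id3, which blocks proneural factors, read 25039 and 36491 in wild-type against 22754 and 11782 in mutant forebrain (-0.88 ± 0.31). Its mutant arrays differ from each other by about as much as the groups do, and the 1st lies close to a wild-type array. Adam10, the protease that cuts Notch, read 1199 and 643 in wild-type against 1626 and 1562 in mutant forebrain (0.86 ± 0.33), and Rbpj, the factor through which Notch acts on genes, read 776 and 1052 in wild-type against 1955 and 1628 in mutant forebrain (0.98 ± 0.48). Both lie above wild-type on each array. The list of 25 genes was balanced, with 12 positive and 13 negative differences and a median of -0.05, from -0.08 to 0.19 with 1 array left out.

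Signalling pathways gave small and mixed differences. In the fibroblast growth factor pathway the receptor Fgfr2 read 701 and 309 in wild-type against 971 and 1298 in mutant forebrain (1.27 ± 0.44), the heparan sulfate carrier Gpc2 read 7622 and 9077 in wild-type against 12028 and 9710.5 in mutant forebrain (0.38 ± 0.18) and the ERK phosphatase Dusp6, a feedback target of the pathway, read 5169.8 and 5809 in wild-type against 3788 and 4252 in mutant forebrain (-0.45 ± 0.22). The 2nd wild-type array of Fgfr2 lay below noise. The receptor and the carrier are higher and the feedback target lower, and of 17 genes 10 differences were positive. Groups did not overlap as higher for 5 and as lower for 3 (12.8% and 10.4% over all genes). Of 27 genes of the BMP, activin and TGF-beta pathway 15 were positive, with a median of 0.08 that ranged from -0.18 to 0.27 when 1 forebrain array was left out; Smad2, which carries the activin signal, read 6209.7 and 5808 in wild-type against 7169 and 7257 in mutant forebrain. In the Wnt list of 11 genes 5 were positive, and Csnk1d, a casein kinase of that pathway, read 3616 and 3296 in wild-type against 4723 and 5415 in mutant forebrain (0.55 ± 0.23). The insulin list had 16 positive and 6 negative differences of 22 and a median of 0.12, which was 0.23 without the 1st wild-type, -0.02 without the 2nd wild-type and 0.07 without the 1st mutant array. Its receptor substrate Irs1 read 258 and 194 in wild-type against 575 and 468 in mutant forebrain, with no wild-type array above noise.

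Axon guidance genes had a list median of 0.16 over 14 genes, or 0.09 after quantile normalization. Of these genes 8 were positive, and 3 did not overlap as higher and 1 as lower (12.8% and 10.4% over all genes). The ephrin receptor Epha7 read 872 and 604 in wild-type against 1053 and 1049 in mutant forebrain (0.53 ± 0.35), the ephrin Efna1 read 786 and 496 in wild-type against 976 and 868 in mutant forebrain (0.56 ± 0.38), and Nrp1, a semaphorin receptor, read 1688 and 1261 in wild-type against 1817 and 1898 in mutant forebrain (0.35 ± 0.26). All are dim, and on each the 2nd wild-type array is the lowest. The list median was -0.10 on the 1st and 0.54 on the 2nd arrays, and -0.31 with the 2nd wild-type array left out, so its direction rests on that array. Without the 1st wild-type array it was 0.63, without the 1st mutant array 0.06 and without the 2nd 0.29. Matrix genes had 12 groups not overlapping as higher and 4 as lower of 62, where all genes gave 12.8% and 10.4%, at a median near 0, from -0.10 to 0.20 with 1 array left out; Agrn, a matrix proteoglycan, read 8793 and 14117 in wild-type against 15072 and 16393 in mutant forebrain.

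Cell cycle and DNA replication genes had more positive than negative differences, at a median close to that of all genes. Of 58 tested, 37 differences were positive and 21 negative, 14 groups did not overlap as higher and 4 as lower, where all genes gave 12.8% and 10.4%. The median was 0.04, or 0.00 with each array centred on its median, and ran from 0.03 to 0.12 with 1 array left out. Kif11, the motor that separates spindle poles, read 619 and 316 in wild-type against 1107 and 1028 in mutant forebrain (1.27 ± 0.47), and Pola1, the catalytic subunit of the polymerase that starts DNA strands, read 878 and 793 in wild-type against 1472 and 1269 in mutant forebrain (0.71 ± 0.38). Pold1, the catalytic subunit of another replicative polymerase, lay on the other side at 4164 and 4538 in wild-type against 2783 and 3183 in mutant forebrain (-0.55 ± 0.22). Of these 3 genes, Kif11 had its 2nd wild-type array below noise. Of the 26 histone, HMG and chromatin genes, 17 differences were negative, with 6 groups not overlapping as lower. Nap1l1, a histone chaperone, read 20807 and 19057 in wild-type against 15928 and 15809 in mutant forebrain (-0.33 ± 0.14), and the nucleolar protein gene Ncl read 22995 and 19892 in wild-type against 27822 and 26005 in mutant forebrain (0.33 ± 0.15).

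Most ribosomal protein genes had small negative differences. Of 42 tested, 36 differences were negative and 6 positive, while over all genes 1718 of 3553 were negative. The shift was small, with a median of -0.10, and 11 groups did not overlap as lower and 2 as higher (10.4% and 12.8% over all genes). Rpl39 read 52543 and 52572 in wild-type against 49401 and 26069.6 in mutant forebrain, Rack1 read 56119.6 and 58705 in wild-type against 54706 and 36402 in mutant forebrain and Rps23 read 70276 and 73623 in wild-type against 69403 and 48229.6 in mutant forebrain. In each the 1st mutant array lies near wild-type and the 2nd far below. The list median was -0.01 on the 1st and -0.15 on the 2nd arrays, and lay between -0.18 and -0.03 when 1 array was left out. It was -0.03 when the arrays were quantile-normalized, so the size of the shift moves with the scaling. Eif4e2, a cap-binding protein, read 10453 and 13553 in wild-type against 10284 and 5695 in mutant forebrain (-0.64 ± 0.27), again with the 2nd mutant array alone far below.

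**Figure D4:**
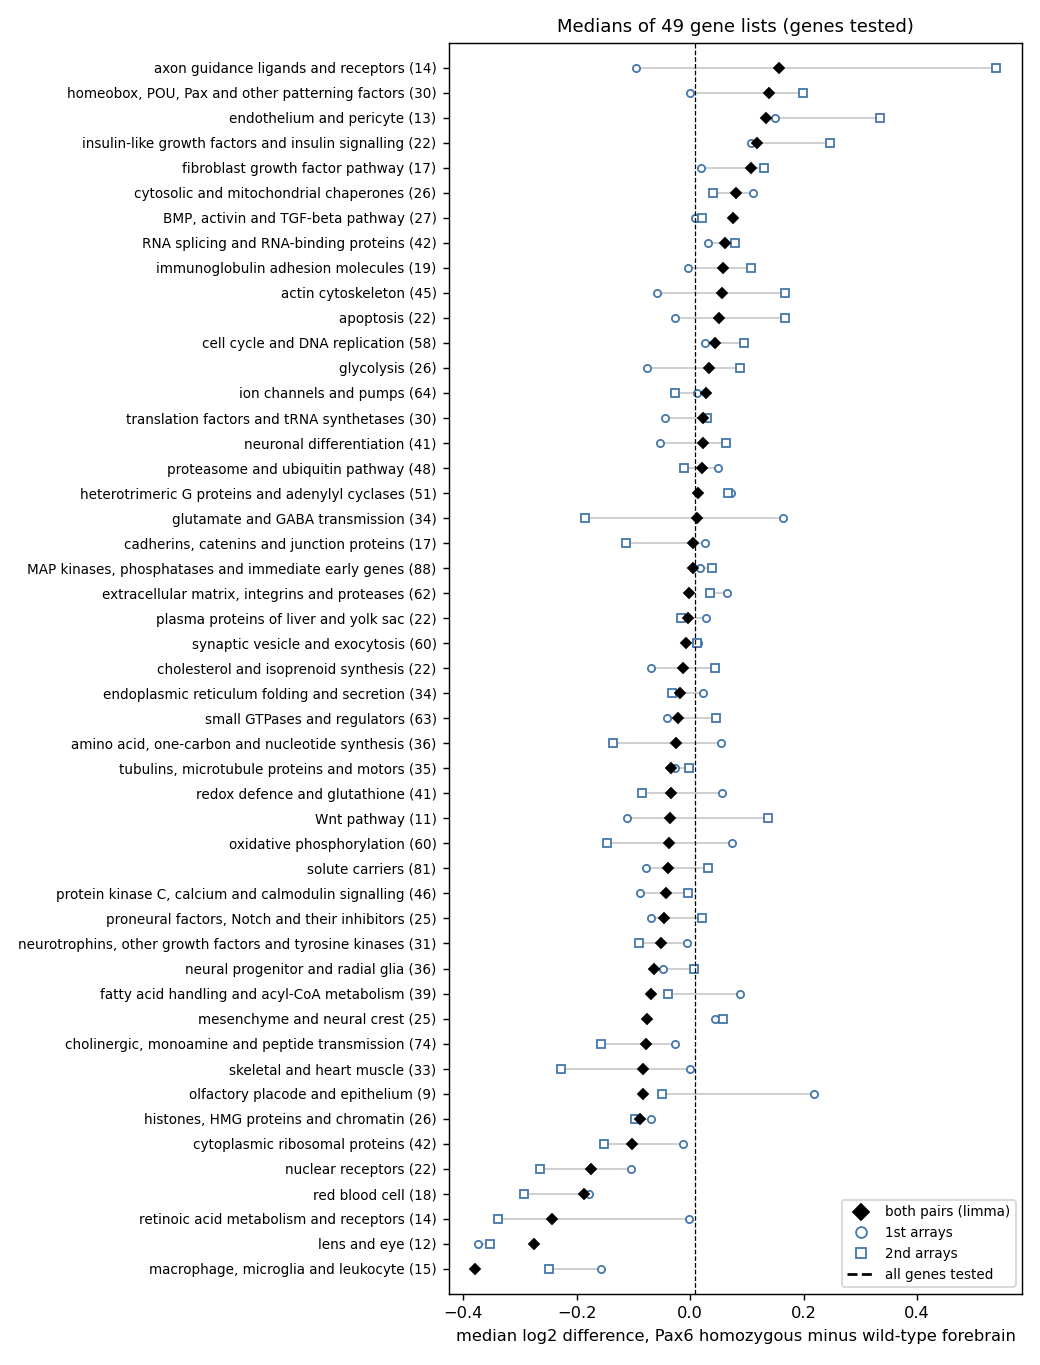
Median log2 difference in forebrain (Pax6 homozygous minus wild-type) of each of 49 gene lists, with the number of genes tested in parentheses. Diamonds are medians of the model's differences, open circles and squares are medians of the ratios of the 1st and of the 2nd arrays, and the dashed line is the median of all genes tested (0.01). Macrophage, lens and retinoic acid genes lie lowest and, on this scaling, axon guidance genes highest, and for many lists the 2 array pairs lie on opposite sides of the line.

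Oxidative phosphorylation genes had 38 negative and 22 positive differences of 60, with a median of -0.04. Atp5pb, a stalk subunit of ATP synthase, read 19391 and 17221 in wild-type against 14266 and 11007 in mutant forebrain (-0.54 ± 0.17), and Sdha, of succinate dehydrogenase, read 10123 and 6289 in wild-type against 11559 and 12981 in mutant forebrain (0.62 ± 0.23). The 2 stand on opposite sides, and the list gave 0.07 on the 1st and -0.15 on the 2nd arrays and ran from -0.17 to 0.10 with 1 array left out. In lipid handling, Apoe, the apolipoprotein of glia and macrophages, read 8510.4 and 8913 in wild-type against 3647 and 6557 in mutant forebrain (-0.83 ± 0.26), both mutant arrays below wild-type. The mitochondrial beta-oxidation enzyme Hadhb read 5447 and 7439 in wild-type against 5417 and 3798 in mutant forebrain (-0.49 ± 0.25). Of 39 fatty acid genes tested, 18 differences were positive and 21 negative. Groups did not overlap as higher for 5 and as lower for 7 (12.8% and 10.4% over all genes). Of that list, Slc27a1 read 43.5 and 138 in wild-type against 674 and 650 in mutant forebrain. No wild-type array of it was above noise. Of 22 cholesterol and isoprenoid genes, 9 differences were positive and 13 negative, with Dhcr7 at 0.36 ± 0.22. Chaperones had 16 positive and 10 negative differences of 26, with 9 groups not overlapping as higher and 3 as lower (12.8% and 10.4% over all genes). Their median was 0.08 and lay between 0.08 and 0.12 with 1 array left out. Hsph1, a large heat shock protein, read 5618 and 4339.8 in wild-type against 5780.1 and 7025 in mutant forebrain (0.37 ± 0.21).

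Genes that bind or process RNA were spread over both sides. Hnrnpa2b1, which packages nascent transcripts, read 21767 and 14503 in wild-type against 25756 and 24878 in mutant forebrain (0.51 ± 0.19), and its relative Hnrnpa1 read 34945 and 30476 in wild-type against 25412 and 27864 in mutant forebrain (-0.29 ± 0.14). The nuclear matrix protein gene Matr3 read 13427 and 13404 in wild-type against 12051 and 5560.0 in mutant forebrain (-0.71 ± 0.31), where only the 2nd mutant array is far from the others. Of 42 tested, 25 differences were positive and 17 negative, and 7 groups did not overlap as higher and 5 as lower (12.8% and 10.4% over all genes). The median was 0.06, from -0.12 to 0.18 with 1 array left out. Translation factors and tRNA synthetases had 16 positive and 14 negative differences of 30, and Eif4a2, a helicase that opens mRNA for the ribosome, read 10985 and 12399.7 in wild-type against 16567 and 13388 in mutant forebrain (0.35 ± 0.17).

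Trafficking and housekeeping lists likewise had members on both sides. Among 63 small GTPases and their regulators, 11 groups did not overlap as higher and 10 as lower (12.8% and 10.4% over all genes). Nras, a switch of growth factor signalling, read 4079.8 and 2877 in wild-type against 5277 and 5195 in mutant forebrain (0.61 ± 0.22). Rab4b, of recycling endosomes, read 1865 and 982 in wild-type against 2887 and 2224 in mutant forebrain (0.90 ± 0.37). Cltb, a clathrin light chain, lay lower at 2333 and 2436 in wild-type against 1822 and 1503 in mutant forebrain (-0.53 ± 0.23), while Exoc5, of the complex that tethers vesicles to the membrane, lay higher at 1615 and 1182 in wild-type against 1909 and 2451 in mutant forebrain (0.65 ± 0.31). The 60 genes of vesicles and exocytosis were even, with 30 positive and 30 negative. In purine metabolism Aprt, which salvages adenine, read 10837 and 9681 in wild-type against 9313 and 4963 in mutant forebrain (-0.59 ± 0.27), and Atic, which completes the purine ring, read 5062 and 4632 in wild-type against 5845 and 7328 in mutant forebrain (0.43 ± 0.21). Of 48 proteasome and ubiquitin genes 25 were positive, with a median of 0.02, from -0.01 to 0.03 with 1 array left out, and Psmb4, a subunit of the proteasome core, read 26248 and 34863 in wild-type against 37439 and 37358 in mutant forebrain (0.31 ± 0.15). The transferrin receptor gene Tfrc, which imports iron and is made in red cell precursors and in dividing cells, read 3233 and 2350.3 in wild-type against 4223 and 3436 in mutant forebrain (0.47 ± 0.25), on the opposite side to most globins.

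Some genes of transmitter systems were dim at this age. Above noise on no forebrain array were 15 of 74 cholinergic, monoamine and peptide genes. The same held for 14 of 34 glutamate and GABA genes, and for 396 of all 3553 genes. Penk, which encodes the enkephalin precursor, read 1159 and 1905 in wild-type against 586 and 697 in mutant forebrain (-1.22 ± 0.40), with each mutant array well below each wild-type array. Cholinergic, monoamine and peptide genes had 45 negative and 29 positive differences of 74. Groups did not overlap as lower for 11 and as higher for 4 (10.4% and 12.8% over all genes), and the median was -0.08. That median turned to 0.01 without the 1st wild-type and 0.15 without the 2nd mutant array, and was -0.31 without the 2nd wild-type and -0.33 without the 1st mutant array. In calcium signalling, Plcb4, a phospholipase that acts below G proteins, read 834 and 676 in wild-type against 122 and 244 in mutant forebrain, with no mutant array above noise. Calb2, the calcium buffer calretinin, read 2068 and 2002 in wild-type against 1691 and 1018 in mutant forebrain (-0.63 ± 0.28). Of 46 genes of protein kinase C, calcium and calmodulin signalling, 20 differences were positive and 26 negative. Groups did not overlap as higher for 3 and as lower for 6 (12.8% and 10.4% over all genes). The median of that list was -0.04, from -0.23 to 0.11 with 1 array left out. The glutamate and GABA list of 34 genes had 0 groups not overlapping as higher and 3 as lower (12.8% and 10.4% over all genes). Its median was 0.01, from -0.23 to 0.33 with 1 array left out.

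Macrophage and leukocyte genes had the lowest list median, -0.38 over 15 genes, of which 12 differences were negative and 3 positive. The median was -0.08 without the 2nd wild-type array. Above noise on no forebrain array were 5 of the 15, against 396 of all 3553 genes. Ptprc, the leukocyte antigen CD45, read 1020.5 and 359 in wild-type against 248 and 238 in mutant forebrain, with no mutant array above noise. Cd14, a receptor for bacterial lipopolysaccharide on these cells, was above noise on all 4 forebrain arrays at 1471 and 1045 in wild-type against 1550.2 and 1099.8 in mutant forebrain, with the groups overlapping. The defining markers Csf1r, Aif1 and Lyz2 were above noise on no forebrain array. The summed intensity of 6 macrophage markers was 3116 and 2425 in wild-type and 2541 and 1834 in mutant forebrain, with the groups overlapping. The olfactory placode list held 9 tested genes, 1 not overlapping as higher and 1 as lower (12.8% and 10.4% over all genes). The array thus gave little on the nose primordium.

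Agreement between probe sets of the same gene was also counted. Of 973 genes with several tested probe sets, 26 (2.67%) had every probe set not overlapping as higher and 13 (1.34%) as lower, and 54.2% had all probe sets on the same side of 0. The 13 include Ptms, Hbg1 and Rtcb, and also, named after their values were seen, the proton pump subunit gene Atp6v0c (-0.77 and -0.53), the mitochondrial enzyme gene Mdh2 (-0.49 and -0.35) and the Notch target Hes1 (-0.22 and -0.21). The 26 include Ephx2 and Ncl (0.33 and 0.67), and also, named after their values were seen, Manea, a mannosidase gene (0.91 and 0.92), and Sdc1, a heparan sulfate proteoglycan gene (0.30 and 0.39). Gsta4, a glutathione transferase, was among the 13 at -0.46 and -0.37. Some of these pairs come from 1 accession and share its sequence.

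The same genotype difference was measured in hindbrain, which bears on whether a forebrain difference was particular to that region. No probe set of 5881 (0%) passed limma's interaction test, and 112 had an unadjusted p under 0.05. Log2 differences in forebrain and hindbrain, which share no array, had a correlation of 0.10 over 5881 probe sets, 0.24 over 3941 above noise on the forebrain arrays and 0.38 over 1142 above 5000. Fabp7 lay lower in hindbrain as well (-3.72), and so did the leading Supt5h probe set (-2.18, the 1st mutant array below noise). Both leading Pgk1 and Zfp775 probe sets were higher there too (1.86 and 0.90). Among bright probe sets this correlation between regions was above that between the 2 forebrain array pairs. The measures are unlike, since the regions are compared by differences over 2 arrays per group and the pairs by ratios of single arrays. Between the 2 hindbrain array pairs the correlation was 0.30 over the same 1142 probe sets.

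The leading genes of the interaction, forebrain difference minus hindbrain difference, missed its threshold. Marcks had -1.69 ± 0.32 on its leading probe set, Cryaa -2.68 ± 0.52 and Agxt, an aminotransferase of the liver peroxisome, -3.15 ± 0.89, with 1 mutant forebrain and 1 wild-type hindbrain array of Agxt below noise. On the other side stood Psat1, an enzyme of serine synthesis, at 1.59 ± 0.37, Ina at 1.02 ± 0.25 and Ncl at 0.69 ± 0.21. Crybb3 was also among the leading genes on the negative side and Ephx2 on the positive, but 1 forebrain group of each had no array above noise, so that the fitted size depends on the floor and is not given. Psat1 read 3019.7 and 2169.6 in wild-type against 4578 and 4213 in mutant forebrain and had a hindbrain difference of -0.81, but its other 2 probe sets had forebrain differences of 0.03 and 0.35. The other Ina probe set had an interaction of 0.42 ± 0.29, and 1 of the 4 Ephx2 probe sets, with all forebrain arrays above noise, had one of -0.38 ± 0.65, on the opposite side. Cryaa read 1018 and 737 in wild-type and 1189 and 894 in mutant hindbrain, near the mutant forebrain values. That the 2 regions differ was not shown for any single gene.

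**Figure D5:**
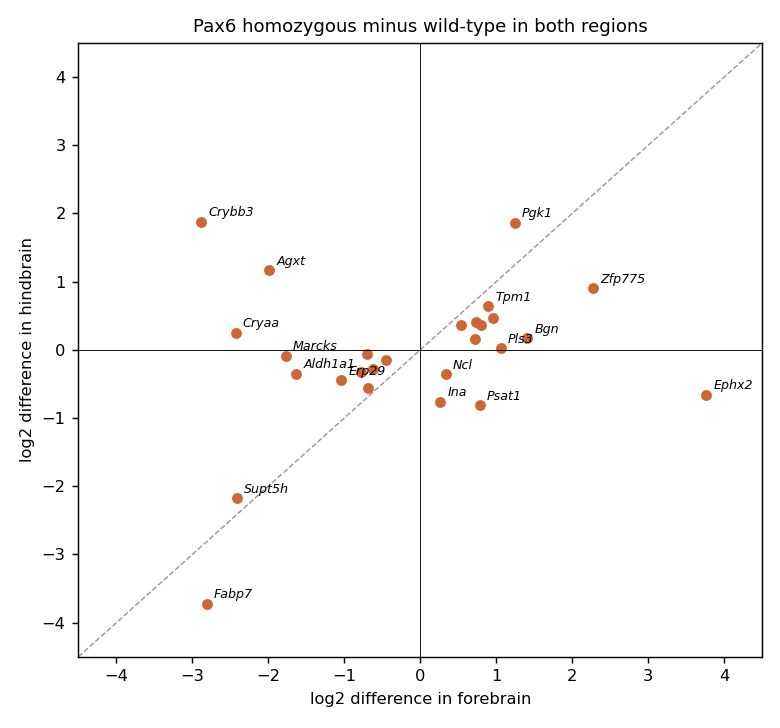
Log2 difference, Pax6 homozygous minus wild-type, in forebrain (horizontal axis) and in hindbrain (vertical axis) for the leading genes of the forebrain comparison and of the interaction, with names where the forebrain difference is at least 1 in size and for 4 others. The dashed line marks equal differences: Fabp7, Supt5h and Pgk1 have the same sign in both regions, Cryaa, Crybb3 and Ephx2 have opposite signs, and Marcks lies near 0 in hindbrain. The places of Crybb3, Ephx2 and Zfp775 along the horizontal axis depend on the floor set under dim values.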

How the data were processed

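RNA of rat embryos was hybridised to 8 arrays, 2 per group. For each array the authors deposited a linear intensity of every probe set, with negative values; which software and scaling made it is not given in the sources used here. Of 8799 probe sets, 59 controls were left out. Names came from the platform annotation: of 8740 probe sets, 7006 have 1 symbol, 308 several and 1426 none. Intensities were floored at the 25th percentile of all arrays (45.9) before log2; tests took probe sets that exceeded the 40th percentile (255) on at least 2 arrays. Contrasts were fitted in limma 3.58.1 (R 4.3.3) over all 8 arrays with 4 group means and an intensity trend, two-sided, with Benjamini-Hochberg adjustment over 5881 probe sets and a threshold of 0.05. The fit was tested on simulated data.

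In an "at least" fold, any array below its noise was set to that noise. Lists use 1 probe set per gene, the brightest; no set test was run. Named genes are those past the threshold, the 12 per direction described in the text, per list the 3 genes of smallest p with a brighter group above noise, 4 per direction of the interaction, Pax6, markers, and further probe sets of leading genes. The members and lists were chosen with earlier results of these data known. Alternatives were other floors, filters, normalizations and variance models, the array number as a block, and leaving out each forebrain array.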

Additional observations from a re-analysis of the deposited data

How the results depend on the processing

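The count of 1 probe set past the threshold in forebrain became 0 without an intensity trend, with the 4 forebrain arrays alone and with a replicate block over those 4, and, in settings chosen after seeing the data, 0 with no filter and probe sets at the floor on every array kept (Fabp7 adjusted p = 0.0613) and 3 (Abcc6, Fabp7 and Supt5h) with such probe sets kept and the floor raised to the pooled median. Leaving out 1 array gave 0 to 5: 5 without the 1st wild-type array (Fabp7, Pgk1, Stk38 and 2 probe sets without 1 symbol), 3 without the 2nd (Apbb1, Atp9a and Fabp7), 0 without the 1st and 1 without the 2nd Pax6 homozygous array, the last being Ngfr and not Fabp7. The log2 change of Fabp7 stayed between -2.98 and -2.64 over these. The interaction count of 0 became 4 without an intensity trend, 13 and 8 in the settings that kept probe sets at the floor, and 0 to 1 with 1 array left out.

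Arrays with the same number deviated together (correlations of 0.275 to 0.465 over the 6 pairs of groups), but the labels do not say what the number marks. With the number as a replicate block over all 8 arrays, 1 probe set passed (Fabp7, adjusted p = 0.00549) and 329 had an unadjusted p under 0.05, against 172 without it. Over the 4 forebrain arrays the block gave an adjusted p of 0.999 for Fabp7.

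The log2 difference of Pax6 reversed to -0.16 without wild-type replicate 2 and reached 0.76 without wild-type replicate 1. Supt5h passed in 1 setting (adjusted p = 0.0457) and Pgk1 without the 1st wild-type array (0.00947). The 2 arrays per group and signals near noise limit all dim values. Leaving out 1 array moved the median of all genes to between -0.08 and 0.08, so list medians of that size shift with the array left out. Quantile normalization or centring each array on its median turned the sign of 10 of 49 list medians, none beyond 0.05 (apoptosis, the highest). Of 1390 alternative values of 87 named results, 1381 kept their direction and side of the threshold. A further 6 lost the call, 2 gained it and 1 reversed. These counts say little of robustness, since only Fabp7 had a call to lose. Where the groups of a gene do not overlap, leaving out 1 array cannot reverse the direction. Alternative values of list medians and the median of all genes numbered 850. Of these, 179 moved by more than the SD between the medians of the 1st and the 2nd arrays.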
